A study of Mus musculus with 6 samples.

Results

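The genes described here are the ligands, receptors and antagonists of the Wnt pathway, with the proteins that carry its signal to the nucleus, measured as messenger RNA in mouse aortas. They were chosen by gene name: every Wnt ligand, R-spondin, frizzled receptor, secreted frizzled-related protein and Dickkopf, with Frzb, Wif1, Lrp5, Lrp6, Axin1, Axin2, Ctnnb1 and the 4 TCF/LEF factors. That gave 52 rows of the 53735 in the count table, and 35 of the 52 had enough reads to be tested. The aortas were those of Mymsl knockout mice (KO), without a gene for a long noncoding RNA, and of wild-type mice (WT), and each genotype had 3 libraries. The RNA was that of smooth muscle cells purified from the medial layer, per the labels' protocols, and was sequenced after poly(A) selection. The labels do not state strain, age, sex, the way Mymsl was deleted or whether a library held 1 mouse or several, so a p-value here reflects only the variation from library to library, which may be technical.

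Wnt proteins are secreted lipid-modified ligands that bind a frizzled receptor at the cell surface. Together with the co-receptors Lrp5 or Lrp6 they stop a cytoplasmic complex built on axin from destroying beta-catenin, which then enters the nucleus and switches on genes with TCF/LEF factors. Secreted frizzled-related proteins and Wif1 bind the ligands, Dickkopf proteins block the co-receptors, and R-spondins protect the receptors from removal. In the vessel wall the pathway is known for its part in vascular development and in smooth muscle proliferation after injury.

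Total counts per library lay between 20048216 and 25521123. No row carried the name Mymsl. A single row of the table, RP23-57D10.3, had 0 counts in each of the 3 KO libraries and 314, 378 and 273 counts in WT replicates 1, 2 and 3, and no row had the opposite pattern. All 8 smooth muscle markers of the list used here, Acta2 and Myh11 among them, were above 1 CPM (read counts scaled to a common library total) in every library. Markers of other cell types were also present: summed over 10 adventitial fibroblast genes they reached 1663 to 3043 CPM in KO and 1509 to 2368 CPM in WT. KO replicate 1 stood apart in several ways. It had the highest mitochondrial share of counts (18.9%, against 10% and 12.98% in the other KO libraries and 5.66% to 9.02% in WT). It also had the highest sum over heart muscle markers (104 CPM). That sum was 44.5 and 49.8 CPM in KO replicates 2 and 3 and 30.4 to 43.4 CPM in WT. Over Hox genes of paralogue groups 9 and above it had the lowest sum (8.87 CPM). The Hox sum was 16.4 and 40.1 CPM in KO replicates 2 and 3 and 32.2 to 41.5 CPM in WT. Mitochondrial share and heart muscle sum were higher in every KO library than in every WT library, the latter by a narrow gap. In KO replicate 3, Pln alone held 29.8 CPM of the heart muscle sum. Of the 7 tested genes of that list, 1 (Myl4) was higher in every KO library than in every WT library, and the others overlapped. The part of these differences in the Wnt values was not tested. Erythroid markers summed to 25.7 to 35.5 CPM in KO, and to 152, 20.3 and 76.02 CPM in WT replicates 1, 2 and 3. In bulk RNA, fewer cells of a type and less RNA per cell cannot be told apart.

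No Wnt gene passed in edgeR, the main test, and 1 passed in DESeq2. The log2 fold changes, KO over WT, lay between −0.64 (Wnt16) and 0.98 (Wnt10b). Of the 35 tested, 0 passed in edgeR's quasi-likelihood test at a Benjamini-Hochberg adjusted p under 0.05, where 0.00707% of all 14145 rows did (1 row), and 0 passed in limma-voom. The DESeq2 test gave an adjusted p to 23 of them and called 1, the receptor Fzd7, as lower, where it called 1.85% of all rows. At an unadjusted p under 0.05 in edgeR, 7 of the 35 were lower in KO (20%, against 7.76% of all rows) and 2 were higher (5.71%, against 6.80%). In 6 of the 35 every KO library lay below every WT library (17.1%, against 11.3% of all rows), and in 3 every KO library lay above (8.57%, against 10.5%). The median log2 fold change, KO over WT, was 0.0065 over the 35 and 0.012 over all rows tested. Of the 35, 31 reached the filter level in all 6 libraries 3 (Wnt2, Sfrp5 and Tcf7) in every KO library but not in every WT library, and Rspo1 in some libraries of each genotype. Without KO replicate 1 there were 4 lower and 2 higher at an unadjusted p under 0.05 (4.71% and 4.53% of all rows), and without WT replicate 3 there were 3 lower and 1 higher (4.6% and 3.86% of all rows).

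**Figure D1:**
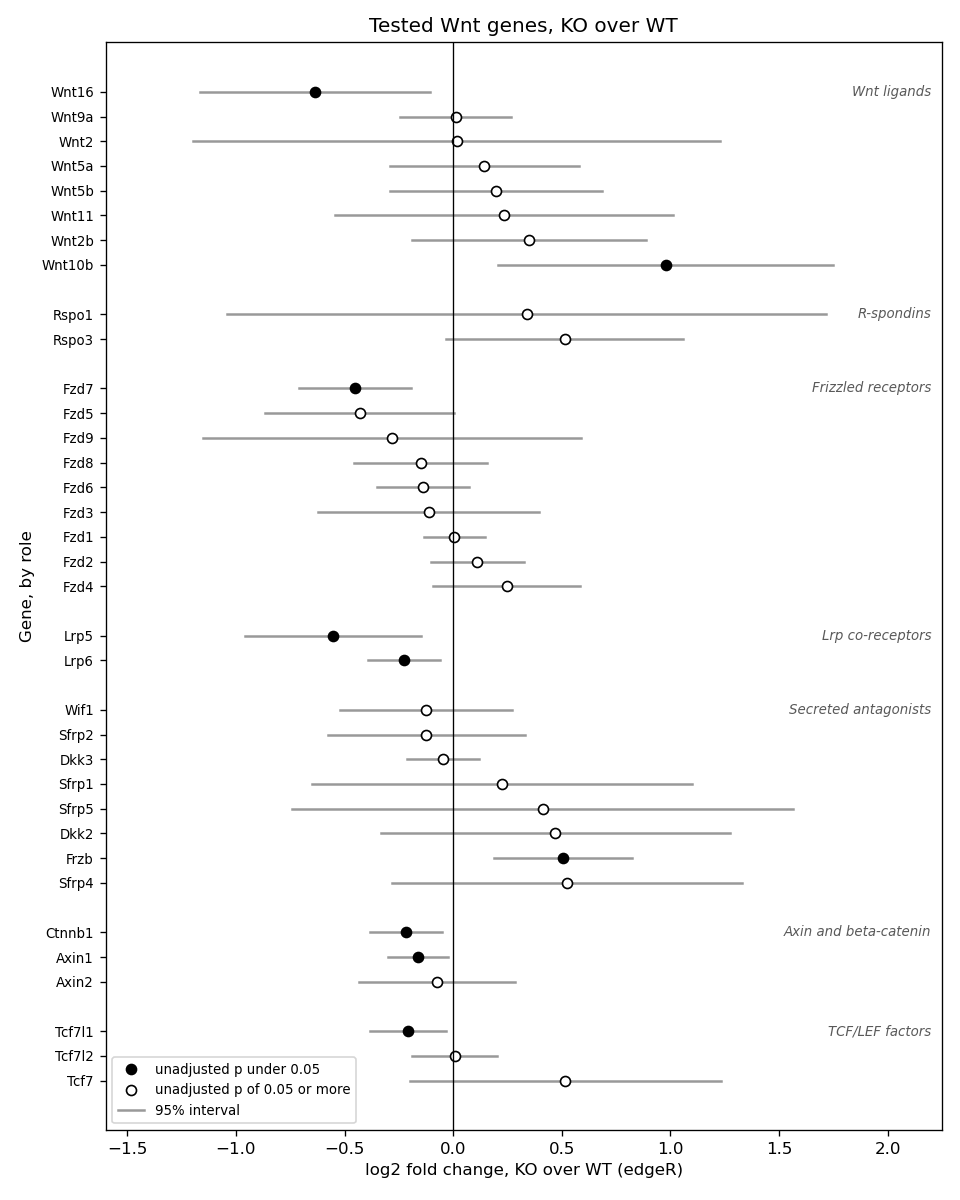
Log2 fold change, KO over WT, of the 35 tested Wnt genes, by role, with 95% intervals from edgeR. Filled points mark the 9 genes with an unadjusted p under 0.05, of which Wnt16, Fzd7, Lrp5, Lrp6, Ctnnb1, Axin1 and Tcf7l1 lie left of 0 and Wnt10b and Frzb right of it.

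Levels are compared between genes as CPM per kilobase of merged exons, in the length of the GENCODE M21 annotation. Frizzled receptors were abundant. Fzd2 had the highest level of the 10 (37.7 in KO and 34.9 in WT, in CPM per kilobase), followed by Fzd7 (25.2 and 34.5), Fzd1 (27.6 and 27.5) and Fzd4 (25.2 and 21.3). The ranges of neighbours in that order overlapped over the 6 libraries. Below them came Fzd8, Fzd6 and Fzd5, between 3.45 and 6.95 in the group means, and then Fzd9 and Fzd3, between 0.387 and 0.471. Fzd10 had between 0 and 3 counts per library and was not tested.

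**Figure D2:**
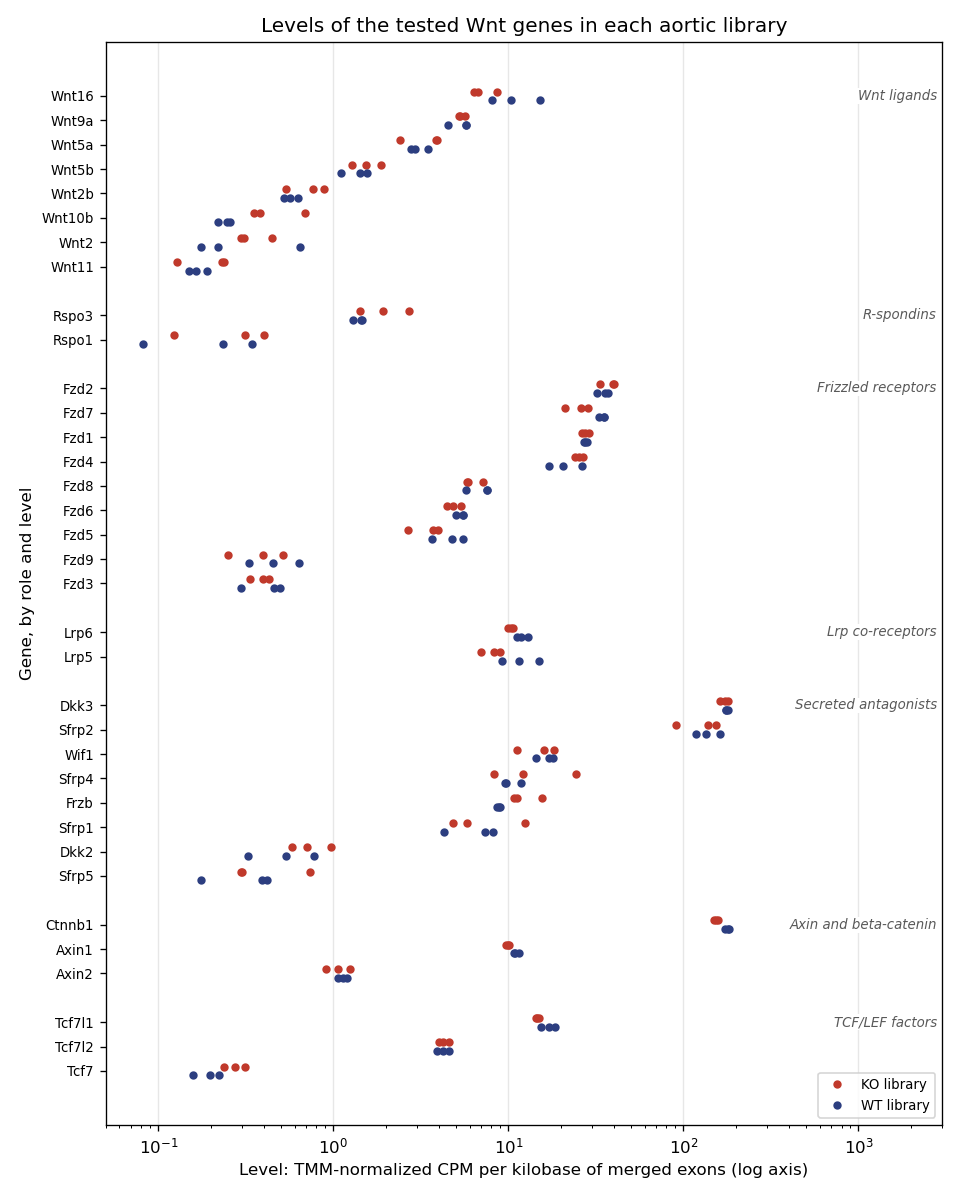
Level of each tested Wnt gene in each library, in CPM per kilobase of merged exons on a log axis, by role and in order of level, with KO libraries above WT libraries. The antagonist Dkk3 and the signal transducer Ctnnb1 lie highest, at 171 and 153 in the KO mean and 177 and 178 in the WT mean.

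Fzd7, a frizzled receptor that works in both the beta-catenin branch and the planar polarity branch, had the smallest p of the Wnt genes. It measured 94.95, 129 and 118 CPM in KO replicates 1, 2 and 3 and 160, 149 and 159 CPM in WT replicates 1, 2 and 3. Each KO library was below each WT library, with KO replicate 1 lowest. The log2 fold change was −0.45 ± 0.11 (SE), or 0.73-fold, with a 95% interval of −0.71 to −0.20. It did not pass in edgeR (adjusted p = 0.263) and passed in DESeq2 (adjusted p = 0.024). The call in DESeq2 was lost without KO replicate 3, WT replicate 1 or WT replicate 3 (adjusted p of 0.0936, 0.23 and 0.323). In those fits the share of all rows called also fell, to 0.966%, 0.219% and 0.178%, from 1.85% with all libraries. The log2 value of Fzd7 in DESeq2 lay between −0.567 and −0.345 over all 6 libraries left out. As a share of the summed level of the 10 frizzled receptors, Fzd7 made up 16.3%, 21.0% and 20.2% in KO replicates 1, 2 and 3 and 26.9%, 23.4% and 25.96% in WT replicates 1, 2 and 3.

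The other frizzled receptors did not pass either. Fzd5 measured 18.4, 27.5 and 25.6 CPM in KO and 25.4, 32.8 and 38.3 CPM in WT, with overlap between the genotypes (log2 −0.43 ± 0.187, adjusted p = 0.345). An antisense gene shares 1233 bases of Fzd5 exons in the annotation, and their reads cannot be told apart here, since how strand was used in the counting is unknown. Fzd4, which also serves as the receptor for norrin in vessels of the retina, measured 169, 161 and 179 CPM in KO and 139, 176 and 114 CPM in WT, a log2 value of 0.25 ± 0.146. Fzd1 was nearly the same in the 6 libraries: 110, 122 and 115 CPM in KO against 114, 114 and 118 CPM in WT. Its 95% interval ran from −0.14 to 0.14. Fzd2 measured 148, 145 and 122 CPM in KO and 118, 135 and 131 CPM in WT (log2 0.11 ± 0.0919, adjusted p = 0.584), with 0.0615 without KO replicate 1, 0.0585 without WT replicate 1 and 0.193 without KO replicate 3. Its genotypes overlapped, and Fzd3, Fzd6, Fzd8 and Fzd9 had values between −0.28 and −0.11.

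The co-receptors of the beta-catenin branch, Lrp5 and Lrp6, had similar levels per kilobase (8.06 and 10.3 in KO, 11.8 and 12.04 in WT). Lrp6 measured 144, 136 and 142 CPM in KO and 162, 154 and 178 CPM in WT, and the genotypes did not overlap. Its log2 fold change was −0.23 ± 0.0713 (adjusted p = 0.277). Lrp5 measured 67.7, 87.7 and 80.2 CPM in KO and 112, 89.3 and 145 CPM in WT. Here the genotypes were separated by a narrow gap, between KO replicate 2 and WT replicate 2, and the WT libraries spread widely. The log2 fold change of Lrp5 was −0.55 ± 0.174 (adjusted p = 0.277), and −0.352 without WT replicate 3. Within each genotype, Lrp5 was lowest in the library with the highest mitochondrial share and highest in the library with the lowest. Among the WT libraries, replicate 2 also had the lowest erythroid sum. The part of either in the result was not tested.

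**Figure D3:**
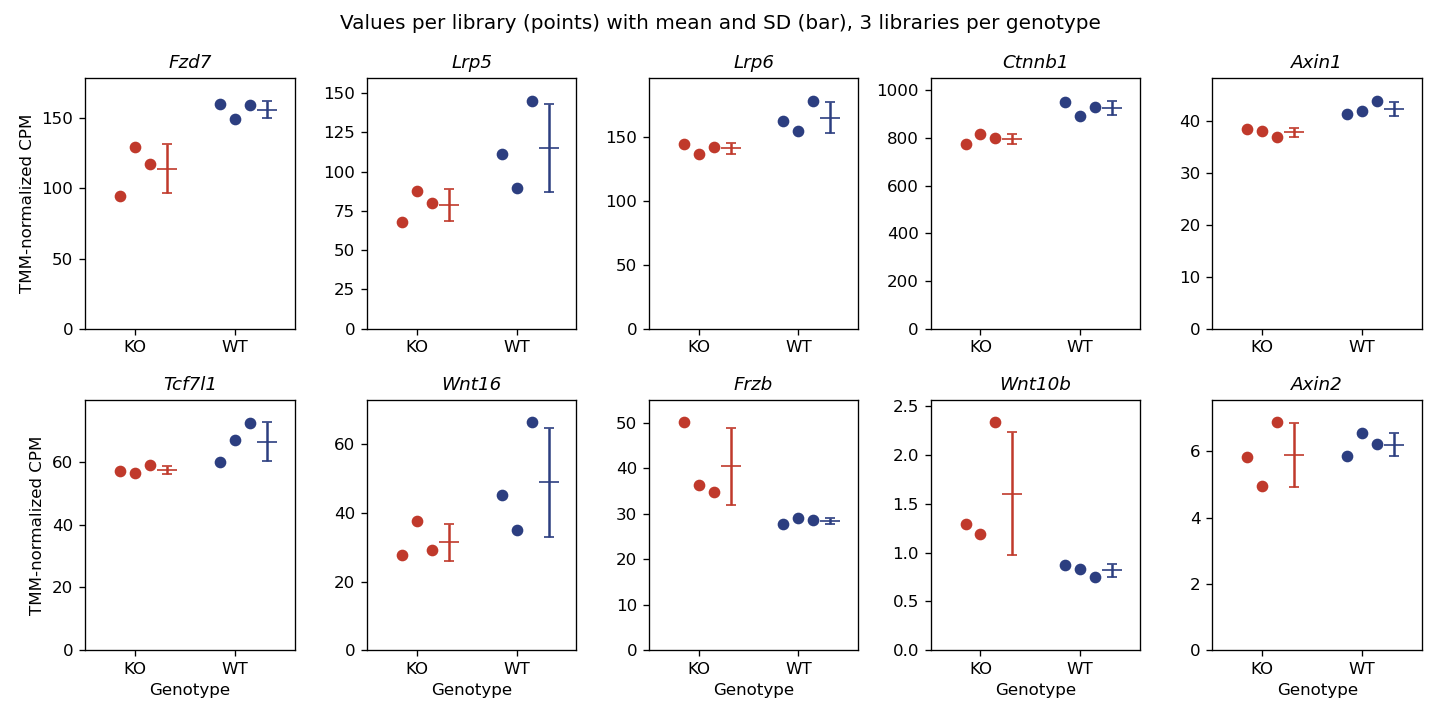
TMM-normalized CPM of 10 Wnt genes in each library, as points, with the mean and SD of 3 libraries as a bar, KO left of WT. The 9 genes with an unadjusted p under 0.05 are shown with Axin2, whose KO libraries (4.97 to 6.88 CPM) cover the range of its WT libraries (5.85 to 6.56 CPM).

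Downstream of the receptors, Ctnnb1, which encodes beta-catenin, measured 773, 816 and 798 CPM in KO replicates 1, 2 and 3 and 951, 893 and 929 CPM in WT replicates 1, 2 and 3. The 2 genotypes were apart by more than the spread within either, and the log2 fold change was −0.22 ± 0.0711, or 0.861-fold (adjusted p = 0.279 in edgeR and 0.0555 in DESeq2). It lay between −0.241 and −0.194 with each library left out. Beta-catenin also serves in cell junctions, and its signalling is set mainly by protein stability. In the annotation its exons share 782 bases with 2 other genes, 1 of them on the same strand. Axin1, the scaffold of the destruction complex, measured 38.5, 38.0 and 36.9 CPM in KO and 41.3, 41.8 and 43.8 CPM in WT, again without overlap (−0.16 ± 0.0595, adjusted p = 0.295). Axin2, a second scaffold whose gene is itself switched on by beta-catenin in many tissues, measured 5.83, 4.97 and 6.88 CPM in KO and 5.85, 6.56 and 6.21 CPM in WT. The values overlapped, and the log2 value was −0.07 with a 95% interval of −0.43 to 0.29.

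Among the TCF/LEF factors, which bring beta-catenin to DNA, Tcf7l1 had the highest level, followed by Tcf7l2 (14.7 and 4.27 CPM per kilobase in KO, 16.96 and 4.25 in WT). Tcf7l1, which acts largely as a repressor, measured 57.1, 56.6 and 59.0 CPM in KO and 60.1, 67.1 and 72.4 CPM in WT. All 3 KO values lay below the lowest WT value, by a narrow gap between KO replicate 3 and WT replicate 1, and the log2 fold change was −0.21 ± 0.0752 (adjusted p = 0.289). Tcf7l2 measured 37.0, 40.3 and 35.1 CPM in KO and 37.3, 40.2 and 34.4 CPM in WT, with a 95% interval of −0.19 to 0.20. Tcf7 was near the limit of detection, with 14, 13 and 19 counts in KO and 10, 13 and 14 in WT. These raw counts overlapped, and Tcf7 reached the filter level in 3 KO libraries but only 2 WT libraries. After scaling it was the third gene higher in every KO library, at 0.722, 0.621 and 0.822 CPM in KO against 0.415, 0.516 and 0.58 in WT (log2 0.52 ± 0.307, adjusted p = 0.447). Lef1 had between 0 and 2 counts per library.

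Only 8 of the 19 Wnt ligands were tested, and 3 of them held most of the ligand signal. As shares of the summed level per kilobase, Wnt16 made up 37.0% ± 6.24 in KO and 48.8% ± 8.48 in WT, Wnt9a 27.5% ± 0.458 and 23.8% ± 4.15, and Wnt5a 17.4% ± 4.52 and 13.9% ± 3.22 (SD, n = 3 each). Wnt16, known for its role in cortical bone, measured 27.7, 37.6 and 29.1 CPM in KO and 45.2, 35.1 and 66.4 CPM in WT. KO replicate 2 was above WT replicate 2, so the genotypes overlapped. The log2 fold change was −0.64 ± 0.228 (adjusted p = 0.289), and −0.349 without WT replicate 3. Like Lrp5, Wnt16 was lowest within each genotype in the library with the highest mitochondrial share and highest in that with the lowest, which was not tested further.

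Wnt5a, the prototype of ligands that act without beta-catenin, measured 30.6, 18.7 and 30.1 CPM in KO and 21.8, 27.1 and 23.0 CPM in WT (log2 0.14 ± 0.188). Leaving out KO replicates 1, 2 and 3 in turn gave log2 values of 0.0259, 0.342 and 0.0398, and leaving out WT replicates 1 and 2 in turn gave 0.0823 and 0.241. Wnt9a, known from joint formation, measured 17.3, 17.5 and 18.8 CPM in KO and 15.1, 19.0 and 19.1 CPM in WT, and its 95% interval ran from −0.24 to 0.27. Both overlapped between the genotypes. Wnt10b, a ligand known for favouring bone over fat formation, was low but had higher values in every KO library: 1.29, 1.19 and 2.34 CPM in KO against 0.872, 0.834 and 0.745 CPM in WT. Its counts were 25, 25 and 54 in KO and 21, 21 and 18 in WT. The log2 fold change was 0.98 ± 0.332 (adjusted p = 0.279), and 0.599 without KO replicate 3. Wnt2, Wnt2b, Wnt5b and Wnt11 had log2 values between 0.02 and 0.35, and their group means were between 0.695 and 4.15 CPM.

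The remaining 11 ligands were too low to test. Wnt7a, Wnt7b and Wnt8a had 0 counts in all 6 libraries, which allows a level of up to 0.0219 CPM, the level of 3 counts over the 6 libraries. This limit covers counting error only. Wnt1, Wnt3, Wnt3a, Wnt8b and Wnt10a had at most 2 counts in any library, Wnt4 and Wnt9b at most 8, and Wnt6 at most 12. Of the R-spondins, Rspo4 had 0 counts throughout and Rspo2 had 11, 5 and 7 counts in KO and 7, 8 and 4 in WT. Rspo3, which is needed for vessel formation in the mouse embryo, measured 8.3, 5.92 and 4.37 CPM in KO and 4.52, 4.45 and 4.02 CPM in WT. KO replicate 3 was inside the WT range (log2 0.51 ± 0.234, adjusted p = 0.36), and the value was 0.247 without KO replicate 1. Rspo1 was under 1 CPM in every library, from 0.239 to 0.774 CPM in KO and from 0.159 to 0.664 CPM in WT.

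The 10 secreted antagonists chosen by name spanned the widest range of levels, and 2 of them dominated. Dkk3, a divergent Dickkopf whose action on the co-receptors is uncertain, measured 584, 601 and 542 CPM in KO and 590, 606 and 586 CPM in WT, with a 95% interval of −0.21 to 0.12. Sfrp2, which binds Wnt proteins outside the cell, measured 297, 196 and 328 CPM in KO and 347, 256 and 291 CPM in WT (log2 −0.12 ± 0.195). Per kilobase they reached 171 and 127 in KO and 177 and 139 in WT, and together held most of the summed level of these 10. Sost, a secreted antagonist outside the name rule, was higher than both, at 418 CPM per kilobase in KO and 583 in WT. It measured 470, 1154 and 969 CPM in KO and 1128, 1010 and 1478 CPM in WT, with KO replicate 1 far below the other libraries. Its genotypes overlapped (log2 −0.48 ± 0.307, adjusted p = 0.476 in edgeR). Frzb, a relative of Sfrp2, was the antagonist with the smallest p. It measured 50.03, 36.4 and 34.7 CPM in KO and 27.7, 28.9 and 28.7 CPM in WT. The WT libraries lay close together and each KO library was above them, with KO replicate 1 highest. The log2 fold change was 0.50 ± 0.136, or 1.42-fold (adjusted p = 0.264 in edgeR and 0.0575 in DESeq2). Without KO replicate 1 it was 0.321, which is over 1.5 times smaller.

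Sfrp4 also had its highest value in KO replicate 1: it measured 101, 34.5 and 50.7 CPM in KO and 49.1, 40.1 and 40.3 CPM in WT (log2 0.52 ± 0.345). Sfrp1 was highest in KO replicate 3, at 21.0, 25.4 and 54.2 CPM in KO and 32, 18.7 and 35.7 CPM in WT (0.22 ± 0.376). Wif1 was lowest in KO replicate 1, at 27.1, 44.0 and 38.7 CPM in KO and 43.4, 41.5 and 35.0 CPM in WT (−0.13 ± 0.171). For these 3 the genotypes overlapped, and the spread among KO libraries was wider than the difference of the means. Dkk2 and Sfrp5 had 0.562 to 3.59 CPM in KO and 0.331 to 2.86 CPM in WT, also with overlap. Dkk1, which blocks Lrp5 and Lrp6, had 3, 6 and 20 counts in KO and 5, 12 and 4 in WT and was not tested, and Dkk4 had 0 counts throughout.

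Of the antagonists, Sfrp2 and Sfrp4 were lowest in the same libraries as the fibroblast markers. For Sfrp4 WT replicates 2 and 3 were nearly equal (40.13 and 40.33 CPM). The fibroblast sum was 3043, 1663 and 2362 CPM in KO and 2368, 1509 and 2249 CPM in WT, lowest within each genotype in replicate 2. Frzb, Wif1, Dkk3 and Sfrp1 did not have this order, with Frzb lowest in KO replicate 3 and WT replicate 1 and Wif1 in KO replicate 1 and WT replicate 3. All 10 fibroblast markers and all 10 endothelial markers were above 1 CPM in every library, as were 7 of 9 macrophage markers, and no marker of these lists was at 0 in all libraries. The sum over 10 endothelial markers was 466, 430 and 736 CPM in KO and 499, 406 and 378 CPM in WT. Over 9 macrophage markers it was 108, 49.0 and 133 CPM in KO and 92.4, 53.1 and 83.7 CPM in WT, also lowest within each genotype in replicate 2. The part of these cells, and of the differences of KO replicate 1, in the values of Sfrp1, Sfrp2, Sfrp4 and Frzb was not tested.

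**Figure D4:**
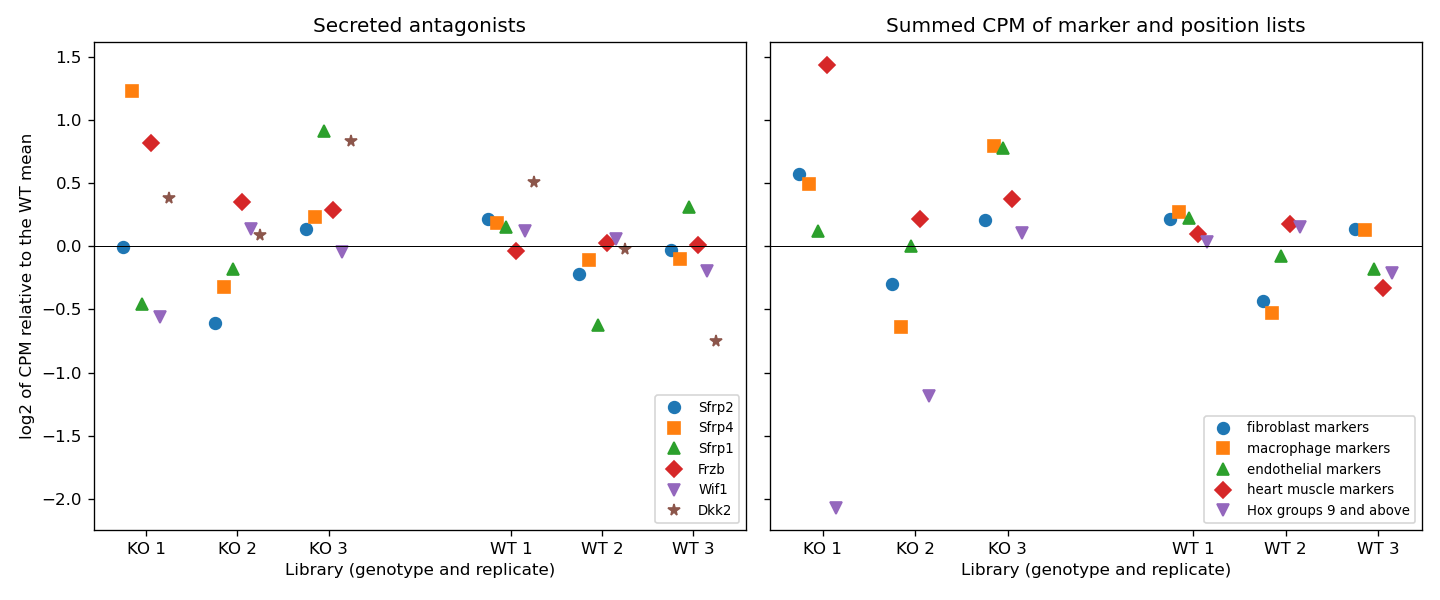
Left, 6 secreted antagonists in each library as log2 of CPM relative to the WT mean, KO libraries left of WT libraries. Right, the summed CPM of 4 lists of cell type markers and of the Hox genes on the same scale, KO left of WT: KO replicate 1 has the highest Sfrp4 and Frzb (101 and 50.03 CPM), the highest heart muscle sum (104 CPM) and the lowest Hox sum (8.87 CPM).

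The stretches of DNA before a RefSeq transcript start of 3 genes are printed to show promoters of Wnt genes with lower KO means. That start lies upstream of the GENCODE start of Fzd7, at that of Wnt16 and inside the GENCODE span of Ctnnb1, whose annotated gene begins further upstream. They come from RefSeq's promoter windows on GRCm38.p6, as 250 bases 5′ to 3′, all on the plus strand: chr1:59481897-59482146 for Fzd7, chr9:120933150-120933399 for Ctnnb1 and chr6:22287977-22288226 for Wnt16. Capitals mark the letters of the GC box, GGGCGG or its reverse CCGCCC, a motif of many broadly used promoters, searched on both strands and chosen after the sequences were seen.
Fzd7: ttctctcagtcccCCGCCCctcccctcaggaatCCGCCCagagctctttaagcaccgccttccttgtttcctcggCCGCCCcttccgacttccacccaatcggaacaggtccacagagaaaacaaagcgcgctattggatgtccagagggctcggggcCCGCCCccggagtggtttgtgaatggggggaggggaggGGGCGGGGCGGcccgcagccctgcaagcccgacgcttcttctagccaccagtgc
Ctnnb1: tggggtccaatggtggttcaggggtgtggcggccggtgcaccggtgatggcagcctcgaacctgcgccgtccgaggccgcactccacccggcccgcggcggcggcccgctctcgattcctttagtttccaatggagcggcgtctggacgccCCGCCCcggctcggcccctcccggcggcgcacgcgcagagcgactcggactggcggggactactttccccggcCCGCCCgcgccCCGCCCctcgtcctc
Wnt16: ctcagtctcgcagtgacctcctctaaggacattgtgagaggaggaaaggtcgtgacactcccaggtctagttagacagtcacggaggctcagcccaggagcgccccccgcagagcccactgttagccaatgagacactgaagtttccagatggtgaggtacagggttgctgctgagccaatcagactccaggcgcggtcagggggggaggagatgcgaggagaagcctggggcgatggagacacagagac
The Fzd7 stretch holds 6 such matches (a pair of them overlapping), that of Ctnnb1 3 and that of Wnt16 0. Windows of 300 bases (250 before the start and 50 after) were found for 35 of the 52 Wnt genes, 44 windows in all. GC box letters were in 77.3% of these and in 35.7% of all 32851 windows. The TCF/LEF letters CTTTGAT, or the reverse ATCAAAG, were in 2 of the 44 (4.55%, against 3.73% of all windows), given here with the match in capitals.
Wnt11: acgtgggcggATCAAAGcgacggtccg
Wnt5b: gtaagtctctCTTTGATctgctccctg
These lie at chr7:98835051-98835077 on the plus strand and chr6:119449441-119449467 on the minus strand, with the match starting 51 and 71 bases before a RefSeq transcript start. For Wnt5b this is 1 of 3 windows and lies inside the GENCODE span of the gene. A match is a run of letters and not a measured binding site, and no match says only that the letters are not in this window.

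The rest of the pathway was described from a list of 71 other genes, of which 65 were tested. That list was drawn up with earlier results of these data known, so its shares are a description only. In edgeR 0 of the 65 passed, and at an unadjusted p under 0.05 there were 13 lower (20%, against 7.76% of all rows) and 2 higher (3.08%, against 6.80%). Their median log2 fold change was −0.09, with 48 of 65 below 0, against 47.5% of all rows tested. Tle2, a corepressor that binds TCF/LEF factors, had the smallest p: 26.8, 23.5 and 24.9 CPM in KO and 17.7, 18.3 and 15.9 CPM in WT. These groups did not overlap (log2 0.53 ± 0.0882, adjusted p = 0.239 in edgeR and 0.00557 in DESeq2). Dvl1, which relays the signal from frizzled receptors, was higher in every KO library (0.30 ± 0.0646, adjusted p = 0.2395). So was its relative Dvl2 (0.14 ± 0.0784, adjusted p = 0.4335 in edgeR). A further relative, Dvl3, had −0.30 ± 0.11, with overlap between the genotypes. Ror1, a receptor for Wnt5a, measured 38.2, 50.1 and 51.6 CPM in KO and 69.3, 60.5 and 63.3 CPM in WT, without overlap. It had a log2 value of −0.46 ± 0.116 (adjusted p = 0.264 in edgeR and 0.0391 in DESeq2).

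Both DESeq2 calls were lost without some single libraries. That of Tle2 was lost without WT replicate 1 or WT replicate 3 (adjusted p of 0.0828 and 0.147), and so was that of Ror1 (0.315 and 0.339). The log2 values in these DESeq2 fits were 0.537 and 0.471 for Tle2, against 0.523 with all libraries, and −0.419 and −0.48 for Ror1, against −0.472. In the same fits 0.219% and 0.178% of all rows were called. Without KO replicate 1 DESeq2 gave neither an adjusted p. Tnks2, a tankyrase that marks axin for destruction, had −0.22 ± 0.0578, Nfatc3, a factor of the calcium branch, −0.25 ± 0.0672, and Znrf3, a ligase that removes frizzled receptors, −0.41 ± 0.116, each lower in every KO library. Among the extracellular partners, the R-spondin receptor Lgr6 measured 359, 464 and 345 CPM in KO and 529, 440 and 503 CPM in WT (−0.33 ± 0.129). Wls and Porcn, which the cell needs to secrete Wnt proteins, had −0.05 ± 0.0595 and 0.09 ± 0.107.

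**Figure D5:**
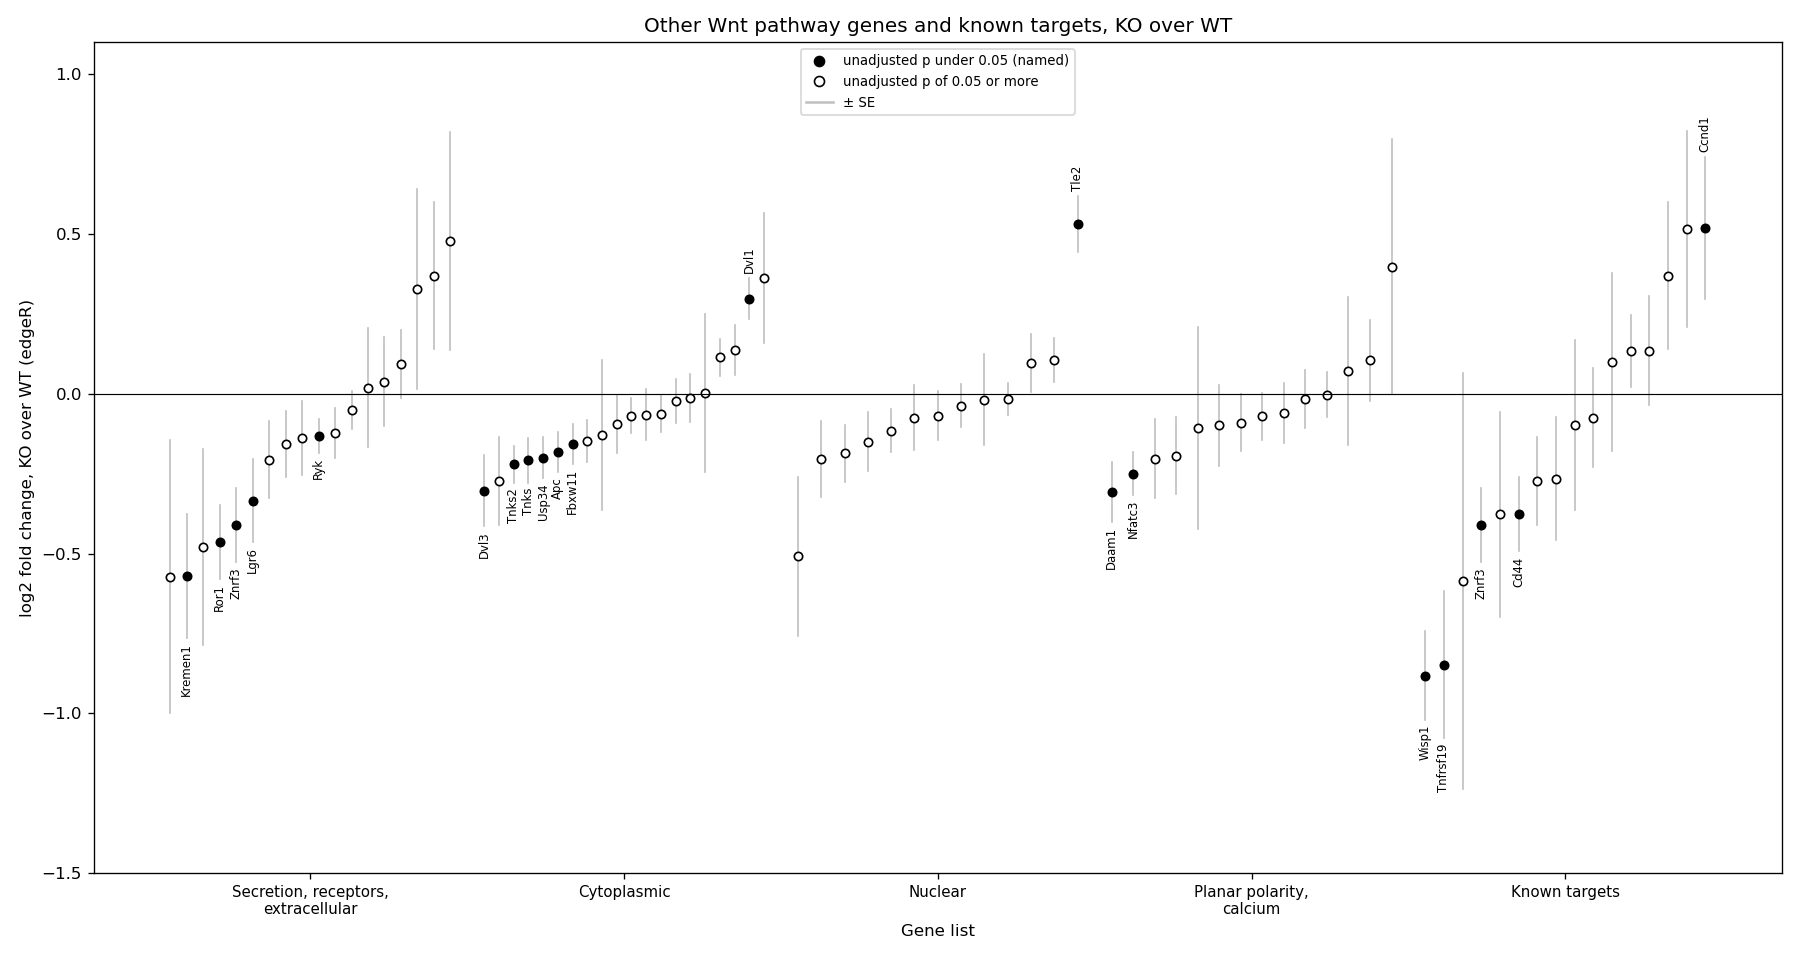
Log2 fold change, KO over WT, with its SE for each tested gene of 4 lists of other Wnt pathway genes and of a list of known target genes, ordered by value within a list. Filled, named points have an unadjusted p under 0.05: Tle2 and Dvl1 lie above 0 in their lists, and Wisp1 lies lowest among the targets.

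A list of 24 genes known as targets of the pathway in other tissues shared 4 with the Wnt genes above (Axin2, Lef1, Tcf7 and Dkk1) and 6 with the other pathway genes, and 16 were tested. In edgeR 0 of these passed, and at an unadjusted p under 0.05 there were 4 lower (25%, against 7.76% of all rows) and 1 higher (6.25%, against 6.80%). Znrf3 was among the lower genes both here and in the other pathway genes. The target list was drawn up with earlier results of these data known, so its shares are a description only. Wisp1, a secreted matricellular protein, measured 7.89, 8.89 and 11.1 CPM in KO and 18.3, 15.9 and 17.2 CPM in WT (log2 −0.88 ± 0.138, adjusted p = 0.239 in edgeR and 0.000207 in DESeq2). With each library left out, DESeq2 called Wisp1 wherever it gave an adjusted p (3.08e-06 to 0.0284). Without KO replicate 1 it gave Wisp1 none. Tnfrsf19 had −0.85 ± 0.23, Cd44 −0.38 ± 0.116 and the cyclin Ccnd1 0.52 ± 0.222. Among feedback genes that often follow beta-catenin, Axin2 had −0.07, Nkd1 −0.27 ± 0.138, Znrf3 −0.41 and Apcdd1 0.37 ± 0.23. Znrf3 was lower in every KO library, while the genotypes overlapped for Axin2, Nkd1 and Apcdd1. Notum, Rnf43, Lgr5 and Lef1 were too low to test, and Sp5 and Mmp7 had 0 counts in all 6 libraries.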

How the data were processed

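Poly(A)-selected RNA of purified medial smooth muscle cells from KO and WT aortas was sequenced with a stranded kit, per the labels' protocols, as 3 libraries per genotype. The authors deposited 1 table of raw counts, with a row for each gene and a column for each library. The submitters' processing notes name Trimmomatic 0.36, STAR 2.6.0c, Subread 1.6.1 with featureCounts, and GRCm38; the annotation release and the strand setting were not stated.

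Counts were fitted over the whole table with edgeR 4.0.16 in R 4.3.3: TMM normalization, filterByExpr with a minimum count of 10 and a minimum total of 15 (14145 of 53735 rows kept), and the quasi-likelihood test of KO over WT, adjusted by Benjamini-Hochberg over all rows kept, with a threshold of 0.05. Values in CPM use TMM library sizes. SE is the log2 fold change divided by the square root of F, and intervals are at 95%. DESeq2 1.42.0 (independent filtering at 0.05, 10374 rows with an adjusted p) and limma-voom 3.58.1 were alternatives, with other filters and scaling, a replicate block and each library left out. The scripts were tested on simulated data. No pair of libraries agreed within sampling noise. An exact permutation test of 3 against 3 libraries cannot go below p = 0.1 and was not used.

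The genes and lists were chosen with earlier results of these data known. Per-library values were given for genes with an unadjusted p under 0.05, the 3 highest of each role, genes called by any tool and genes whose genotypes did not overlap at a mean of at least 1 CPM, and for the smallest p of the other lists. Fzd4, Fzd5, Tcf7, Rspo3, Sfrp1, Sfrp4, Sost, Dvl3, Lgr6, Wls, Porcn, Nkd1 and Apcdd1 were partly or wholly named after their values were seen. The GC box was added after the promoters were seen. Exon lengths come from GENCODE M21 on GRCm38, in which exons of 9 tested Wnt genes overlap those of another gene (Wnt5a, Wnt11, Rspo3, Fzd5, Fzd6, Sfrp2, Axin2, Ctnnb1 and Tcf7l1). Without the strand setting their reads cannot be assigned with certainty.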

Additional observations from a re-analysis of the deposited data

How the results depend on the processing

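Of the 21 tested Wnt genes followed across 13 alternatives (12 for Wnt10b, Tcf7 and Rspo1, which a mean count of at least 50 left out), 14 kept their direction in each alternative run for them and 7 did not. Fzd1 was −0.00342 with the DESeq2 test and −0.00811 with no filter, Tcf7l2 −0.000892 and −0.00572, and Wnt9a −0.00132 with no filter. With each library left out, the log2 values ran from −0.0317 to 0.0373 for Fzd1, from −0.0481 to 0.0634 for Tcf7l2, from −0.091 to 0.0723 for Wnt9a, from −0.203 to 0.037 for Axin2, from −0.275 to 0.0697 for Sfrp2, from −0.276 to 0.0481 for Wif1 and from −0.0584 to 0.806 for Rspo1. The cause was not tested.

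Over all rows, 192 passed with the DESeq2 test (65 higher and 127 lower), 9 with no filter, 0 with the replicate block and 0 to 3 with each library left out (0 without WT replicate 1, 3 without KO replicate 2), against 1 in edgeR. DESeq2 called 1 of the Wnt genes, 2 of the other pathway genes and 1 known target (Wisp1, also called with no filter), against 0 in edgeR for each of the 3 lists. In an alternative added after the data were seen, DESeq2 with each library left out called 0 to 5 Wnt genes: Fzd7, Wnt16, Fzd4, Ctnnb1 and Lrp5 without WT replicate 2, Frzb without KO replicate 3, Fzd7 without KO replicate 1 or KO replicate 2, and 0 without WT replicate 1 or WT replicate 3. Between 10 and 38 Wnt genes had an adjusted p in these fits. The 5 were 18.5% of 27, against 3.18% of all rows called in that fit, and over the 6 fits 0.178% to 3.18% of all rows were called. The median log2 value of the Wnt genes was −0.132 over the 23 with an adjusted p in DESeq2, which leaves out low genes. Over all rows with an adjusted p there it was −0.0144. At a mean count of at least 50 the medians were −0.0503 over 28 Wnt genes and 0.00861 over all rows. At a mean count of at least 50, 1 of 28 Wnt genes was higher in every KO library (3.57%, against 11.5% of all rows). There 6 were lower (21.4%, against 12.1%). With each library left out 3 to 7 were higher (8.33% to 18.9%, against 13.9% to 18.8% of all rows). Those lower numbered 6 to 9 (16.7% to 25%, against 13.9% to 17.9%). The share over all rows moved too: the 7 higher without KO replicate 2 were 18.9% of the Wnt genes, against 18.8% of all rows, and the 9 lower without WT replicate 2 were 25%, against 16.9%.

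Same-numbered KO and WT libraries had correlations of their deviations of 0.0981, 0.139 and −0.0562, against −0.28 to 0.184 between different numbers. With 3 libraries per genotype these values cannot tell whether same-numbered libraries share more than a number. With the replicate block, 0 Wnt genes passed and the smallest adjusted p among them was 0.301. Rspo1, Wnt2 and Sfrp5, with at most 35 counts in any library, had the widest intervals of the tested Wnt genes.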
